A study of Mus musculus with 8 samples.

Results

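Adrenal gland transcripts marked 2 of 8 whole mouse kidney libraries, the library labelled knockout replicate 2 and the library labelled wildtype replicate 1. Levels are given as CPM, a gene's read count divided by the sum over all genes of its library, times 1000000. The genes described were chosen by their CPM in these 8 libraries: at least 1 CPM in both, with the lower of both at least 5 times the highest of the other 6. The rule chose 42 of 37583 gene rows, 42 of the 13449 genes with at least 1 CPM in both libraries (0.312%). The levels that chose these genes are given as a description, with no test. In the opposite direction, with the lowest of the other 6 at least 5 times the higher of both, the count was 0 of 12798 genes (0%).

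The 4 knockout libraries came from Six2Cre+TFAP2Afl/flTFAP2Bfl/WT mice, which carry a Cre recombinase driven by Six2, a gene of nephron progenitors, together with loxP-flanked alleles: both copies of TFAP2A and 1 copy of TFAP2B. The 4 wildtype libraries came from control littermates given as WT, and the labels used here do not say whether these carry Cre or floxed alleles. Age, sex, litter and whether the adrenal gland was trimmed from the kidney are not given in the labels used here, nor is it said that each library is a separate animal. Counts over the whole floxed genes did not separate the labels, with Tfap2a at 3.78 to 5.99 CPM in knockout and 2.75 to 5.32 CPM in wildtype libraries, and Tfap2b at 56.3 to 107 CPM and 49.8 to 100.2 CPM. Which exons are floxed is not given in the labels, so these values check no label, and libraries are named here as labelled. Gene counts totalled 13871861 to 16629301 per library. Kidney identity was plain in all 8: 9 defining kidney genes, among them the proximal tubule gene Kap and the thick ascending limb gene Umod, summed to 52890 CPM in knockout replicate 2, to 64456 CPM in wildtype replicate 1 and to 42729 to 65065 CPM in the other 6. Kap made up most of the sum, at 37933 and 51739 CPM in knockout replicate 2 and wildtype replicate 1, so the sum hides the other genes. Of the 9, Lrp2 (2497 and 2494 CPM against 2973 to 3569) and Slc12a3 (442 and 414 CPM against 448 to 654) lay below all other 6 libraries in both. In both libraries, 0 of the 9 lay above all other 6. In whole-tissue RNA, fewer cells of a type and less RNA per cell cannot be told apart.

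The adrenal gland sits at the upper pole of the kidney and joins organs of separate origin. Its cortex makes steroid hormones from cholesterol: aldosterone in the outer zona glomerulosa, and corticosterone in the inner zona fasciculata under control of the pituitary hormone ACTH. Its medulla consists of chromaffin cells, relatives of sympathetic neurons, which make adrenaline from tyrosine and store it in granules packed with granin proteins. The 4 marker genes given for the label, Star and Cyp11b1 of the cortex and Th and Chga of the medulla, were all among the 42. Of these 42 genes, 12 stood on lists of cortex genes, 12 on lists of chromaffin genes and 18 on neither.

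Promoter sequences are shown for the adrenal-list members in which a searched motif was found, since chromaffin granule genes are textbook targets of cAMP signalling. Meg3 and Frmd5, on no list, also held a motif and are not shown. RefSeq's table for GRCm38.p6 held a promoter for 27 of the 42 members. The 250 bases before the RefSeq transcription start were searched on both strands for 4 motifs, chosen after others had been tried. Gene positions given below are from GENCODE M21, whose gene bounds can differ from these starts. By those bounds the windows of Th, Chgb and Cyp11a1 lie inside the gene, and those of Scg2 and Akr1b7 overlap it. The full cAMP response element TGACGTCA was found for 4 members (Chgb, Scg2, Th and Meg3), and in 1.55% of all 32851 promoters of that length. Its first 6 letters, TGACGT, which overlap it, were found in the same 4 and Chga, against 6.47% of all promoters. The motif CAAGGTCA of the steroidogenic factor Nr5a1 was found for 0 of the 27 and in 1.33% of all promoters. Its last 6 letters AGGTCA were found for 4 (Akr1b7, Cyp11a1, Frmd5 and Meg3), against 14% of all promoters. A match is a match of letters in this window only. Each member is counted once if any of its promoters held the motif, while the percentages are over single promoters, so they are not like measures. The element began 45 bases before the start in Th, 72 in Chgb and 68 in Scg2, and the shorter form 44 bases before it in Chga. AGGTCA began 28 bases before the start in Cyp11a1, and 248 bases before it on the opposite strand in Akr1b7. Capitals mark the motif, and each sequence runs 5′ to 3′ along the gene's strand.

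Th, chr7:142899996-142900245, minus strand: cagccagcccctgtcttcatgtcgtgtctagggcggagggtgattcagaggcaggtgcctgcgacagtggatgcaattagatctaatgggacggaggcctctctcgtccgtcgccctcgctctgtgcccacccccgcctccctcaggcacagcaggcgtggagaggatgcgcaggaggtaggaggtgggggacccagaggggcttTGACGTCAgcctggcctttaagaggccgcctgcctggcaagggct

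Chgb, chr2:132781392-132781641, plus strand: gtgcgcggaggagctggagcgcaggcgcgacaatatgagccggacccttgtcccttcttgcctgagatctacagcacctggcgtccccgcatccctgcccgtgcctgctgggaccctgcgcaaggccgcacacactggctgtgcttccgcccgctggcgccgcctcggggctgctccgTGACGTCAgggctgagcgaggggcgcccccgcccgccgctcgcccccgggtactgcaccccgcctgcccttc

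Scg2, chr1:79440027-79440276, minus strand: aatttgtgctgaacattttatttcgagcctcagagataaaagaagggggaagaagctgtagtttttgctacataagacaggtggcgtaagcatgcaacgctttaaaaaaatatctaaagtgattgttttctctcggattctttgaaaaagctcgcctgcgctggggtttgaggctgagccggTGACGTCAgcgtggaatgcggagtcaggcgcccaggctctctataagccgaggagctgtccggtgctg

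Chga, chr12:102554691-102554940, plus strand: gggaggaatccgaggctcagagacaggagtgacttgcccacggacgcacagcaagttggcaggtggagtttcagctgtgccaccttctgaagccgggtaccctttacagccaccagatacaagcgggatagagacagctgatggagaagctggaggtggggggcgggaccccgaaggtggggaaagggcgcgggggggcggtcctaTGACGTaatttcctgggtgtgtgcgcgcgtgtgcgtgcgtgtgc

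Cyp11a1, chr9:58014702-58014951, plus strand: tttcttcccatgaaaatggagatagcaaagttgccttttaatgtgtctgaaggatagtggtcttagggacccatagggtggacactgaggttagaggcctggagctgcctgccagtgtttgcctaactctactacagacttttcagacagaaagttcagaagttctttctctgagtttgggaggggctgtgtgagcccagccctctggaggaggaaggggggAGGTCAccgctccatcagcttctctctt

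Akr1b7, chr6:34412112-34412361, plus strand: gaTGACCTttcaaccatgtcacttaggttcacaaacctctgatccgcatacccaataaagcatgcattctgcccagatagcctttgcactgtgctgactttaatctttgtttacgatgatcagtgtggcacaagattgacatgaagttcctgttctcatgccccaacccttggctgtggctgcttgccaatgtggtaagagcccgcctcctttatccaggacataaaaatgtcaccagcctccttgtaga

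The genes that turn cholesterol into corticosteroids were the most abundant members. Star (ENSMUSG00000031574, chromosome 8, 25806555 to 25815982 on GRCm38), which carries cholesterol into mitochondria, was at 363 CPM in knockout replicate 2 and 334 CPM in wildtype replicate 1. It was at 5.01, 4.97 and 6.33 CPM in knockout replicates 1, 3 and 4 and at 4.15, 4.50 and 3.97 CPM in wildtype replicates 2, 3 and 4. Star was therefore present at a low level in every kidney library, with 62 to 92 reads in each of the other 6. Cyp11a1 (ENSMUSG00000032323, chromosome 9, 58006411 to 58027023), the enzyme that makes pregnenolone from cholesterol, was at 123 CPM in knockout replicate 2 and 119 CPM in wildtype replicate 1. It had 22, 1 and 10 reads in knockout replicates 1, 3 and 4 and 1 read in each of wildtype replicates 2, 3 and 4. Both high libraries stood far above the rest for both genes. The small remainder of Cyp11a1 lay mostly in knockout replicates 1 and 4, while that of Star was spread over all 6.

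Hsd3b1 (ENSMUSG00000027871, chromosome 3, 98852194 to 98859794), which makes progesterone from pregnenolone, was at 234 and 244 CPM in knockout replicate 2 and wildtype replicate 1. Elsewhere it was at 3.49 and 2.48 CPM in knockout replicates 1 and 4, and had 1 read in knockout replicate 3 and 6, 7 and 7 reads in wildtype replicates 2, 3 and 4. The next enzyme, Cyp21a1 (ENSMUSG00000024365, chromosome 17, 34801348 to 34804561), which makes deoxycorticosterone, was at 131 and 104 CPM in the same high libraries. It had 13, 5 and 24 reads in knockout replicates 1, 3 and 4 and 1, 2 and 0 reads in wildtype replicates 2, 3 and 4. Its sequence is shared in part with a pseudogene, Cyp21a2-ps: 26.5% of the 50-base windows of its longest transcript occur in transcripts of other genes. Reads without a unique place were set aside, so its level is uncertain. The pseudogene itself was at 2.45 and 0.951 CPM in the high libraries and at 0 elsewhere.

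The zones of the cortex were both represented. Cyp11b1 (ENSMUSG00000075604, chromosome 15, 74834125 to 74841643), the last enzyme of corticosterone synthesis in the zona fasciculata, was at 94.7 and 76.9 CPM in knockout replicate 2 and wildtype replicate 1. It had 8, 0 and 8 reads in knockout replicates 1, 3 and 4 and 1, 1 and 0 reads in wildtype replicates 2, 3 and 4. Its neighbour Cyp11b2 (ENSMUSG00000022589, 74851010 to 74856318), aldosterone synthase of the zona glomerulosa, lies 9.37 kb away and was at 4.97 and 7.88 CPM. Cyp11b2 had 1 read in each of knockout replicates 1 and 4 and 0 in the other 4 libraries. Per kilobase of annotated exon, Cyp11b1 reached 29.9 and 24.3 CPM and Cyp11b2 3.06 and 4.85 CPM in knockout replicate 2 and wildtype replicate 1. Both genes are near copies, with 18.1% of 50-base windows of Cyp11b1 and 19.1% of those of Cyp11b2 found in other genes, which makes the split between them uncertain. For Akr1b7, 15.8% of windows are shared with an antisense gene.

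Beside Cyp11b1, 2 more of the 11 genes on the zona fasciculata list met the rule. Akr1b7, an aldose reductase-like enzyme that ACTH induces, was at 32.0 and 27.8 CPM in knockout replicate 2 and wildtype replicate 1, and at 0.782 to 2.23 CPM in the other 6. Mc2r, the ACTH receptor, was at 5.97 and 4.48 CPM and had 1 to 4 reads in each of the other 6. Ces1d, an abundant kidney esterase on the same list, did not separate the libraries and was at 332 and 402 CPM against 304 to 512 CPM elsewhere.

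Of 17 genes on the zona glomerulosa list, 4 met the rule: Cyp11b2, Cacna1h, Atp2b3 and Vsnl1. Cacna1h, a T-type calcium channel that feeds aldosterone synthesis, was at 8.68 and 6.11 CPM against 0.144 to 0.963 CPM in the other 6. Atp2b3, a plasma membrane calcium pump, was at 1.99 and 1.56 CPM, with 1 read in each of 2 other libraries and 0 in 4. Vsnl1, a neuronal calcium sensor, was at 1.13 and 1.15 CPM with 0 reads in all other 6, at least 5.21-fold higher in its lower library than the 0.216 CPM that a count of 0 allows in the shallowest of them (3 reads). The zone's potassium channel gene Kcnk3 lay just outside the rule, at 50.6 and 48.3 CPM against 2.81 to 10.1 CPM.

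Of 16 genes of cortex identity and signalling, 2 met the rule, Nr5a1 and the ACTH receptor gene Mc2r. Nr5a1 (ENSMUSG00000026751, chromosome 2, 38692656 to 38714542), steroidogenic factor 1, the nuclear receptor that defines steroid-making cells, was at 8.35 CPM in knockout replicate 2 and 9.17 CPM in wildtype replicate 1. It had 1 read in knockout replicate 1 and 0 in the other 5. Gata6, a cortex transcription factor, did not meet the rule but lay above all other libraries, at 3.25 and 3.06 CPM against 0.760 to 1.51 CPM. Mrap, the partner that brings the ACTH receptor to the surface, was at 4.77 and 4.75 CPM against 1.37 to 2.92 CPM.

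In the medulla, 3 enzymes on the path from tyrosine to adrenaline were nearly absent outside both high libraries. Th (ENSMUSG00000000214, chromosome 7, 142892752 to 142931128), tyrosine hydroxylase, the first and rate-limiting step, was at 14.0 CPM (211 reads) in knockout replicate 2 and 15.6 CPM (230 reads) in wildtype replicate 1. It had 1 read in knockout replicate 1 and 0 in the other 5. Dbh (ENSMUSG00000000889, chromosome 2, 27165233 to 27183200), which makes noradrenaline from dopamine, was at 9.94 and 11.5 CPM in the same high libraries. It had 2, 1 and 1 reads in knockout replicates 1, 3 and 4 and 1, 0 and 0 reads in wildtype replicates 2, 3 and 4. Pnmt (ENSMUSG00000038216, chromosome 11, 98386450 to 98388181), which turns noradrenaline into adrenaline and marks adrenaline-making chromaffin cells, was at 7.69 and 8.83 CPM. Pnmt had 0 reads in all other 6 libraries, so the lower of both values was at least 35.6-fold higher than the 3-read floor.

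Granins and peptides gave the strongest medulla signal. Chgb (ENSMUSG00000027350, chromosome 2, 132781278 to 132795079), chromogranin B, was at 71.1 CPM in knockout replicate 2 and 89.5 CPM in wildtype replicate 1, with 6, 2 and 2 reads in knockout replicates 1, 3 and 4 and 4, 2 and 1 reads in wildtype replicates 2, 3 and 4. Chga (ENSMUSG00000021194, chromosome 12, 102554969 to 102565028), chromogranin A, was at 51.0 CPM (770 reads) and 68.5 CPM (1008 reads), and had 1 read in each of wildtype replicates 3 and 4 and 0 in the other 4. Scg2 (ENSMUSG00000050711, chromosome 1, 79434669 to 79440120), secretogranin II, was at 25.4 and 46.1 CPM, with 1 read in knockout replicate 4 and 0 elsewhere. These 3 granule genes, 2 with the full element and 1 with the shorter form shown above, were clear of every other library.

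Npy, a neuropeptide that chromaffin cells release, was at 9.61 and 10.1 CPM (145 and 148 reads) in knockout replicate 2 and wildtype replicate 1, and at 0.570 to 1.72 CPM in the other 6. Pcsk1n, an inhibitor of prohormone convertase, was at 1.59 and 2.45 CPM, and Resp18, a protein of neuroendocrine granules, at 1.26 and 1.90 CPM. Resp18 had 0 reads in all other 6. Of neural genes, Rab3c, a GTPase of secretory vesicles, was at 2.25 and 3.19 CPM and Syt4, a synaptotagmin, at 1.13 and 1.49 CPM, each with at most 1 read in any other library. Dlk1, a Notch-family ligand found in chromaffin cells, was at 9.02 and 15.3 CPM against 0.127 to 0.640 CPM.

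**Figure D1:**
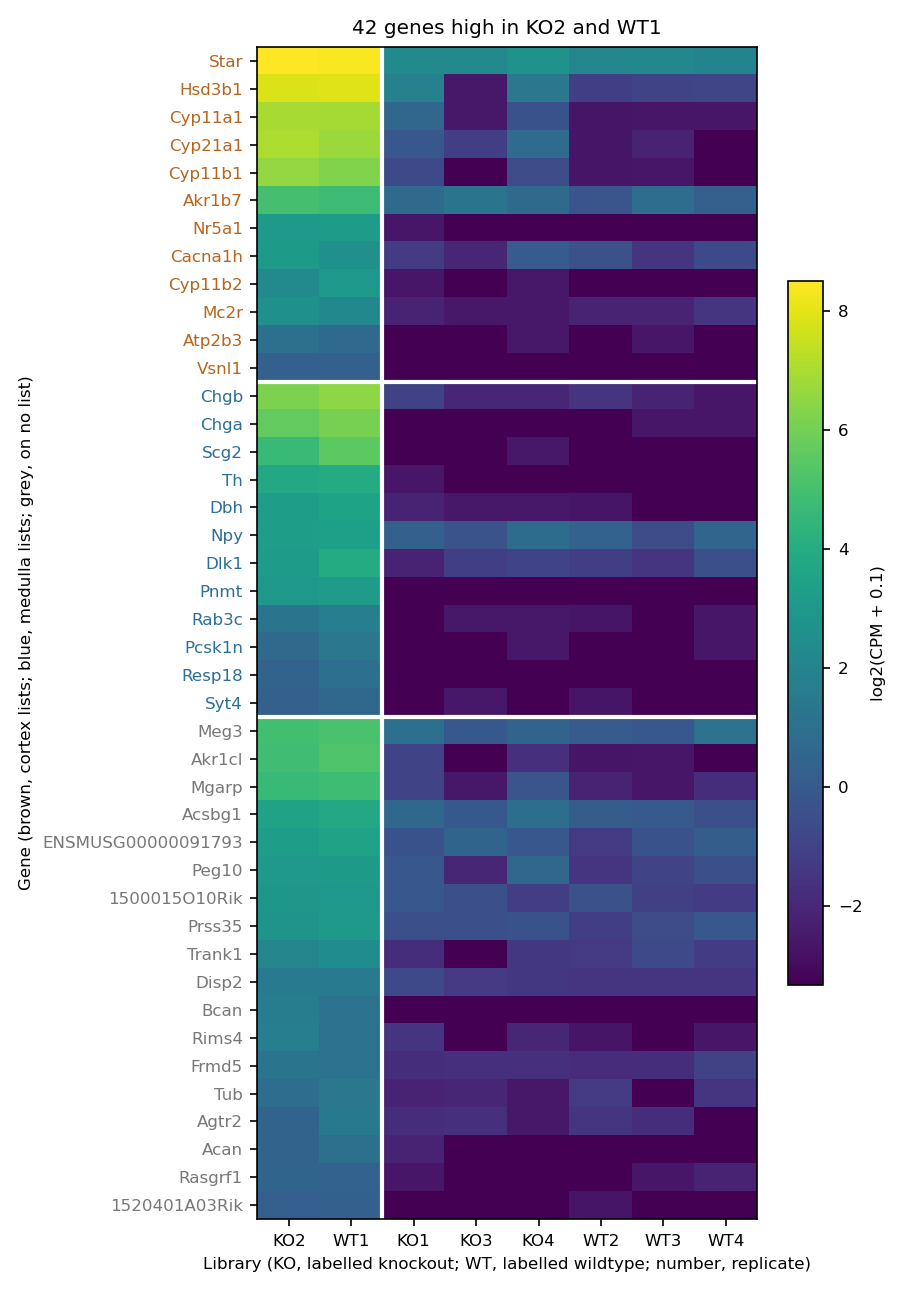
Levels of the 42 genes as log2(CPM + 0.1), 1 row per gene and 1 column per library, with gene names in brown (cortex lists), blue (medulla lists) and grey (on neither). Knockout replicate 2 and wildtype replicate 1, on the left, are high in every row by the rule that chose the genes; Star, Akr1b7, Npy and Meg3 keep a low level in the other 6 libraries, and Pnmt, Bcan, Resp18 and Vsnl1 have 0 reads there.

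The 18 members on no adrenal list reached 1.06 to 30.3 CPM in the lower of both libraries. Meg3 (ENSMUSG00000021268, chromosome 12, 109541001 to 109571726), a long non-coding RNA, was at 30.3 and 34.0 CPM in knockout replicate 2 and wildtype replicate 1 and at 0.823 to 2.05 CPM elsewhere. It lies 77.7 kb from Dlk1 in an imprinted domain. Peg10 and Rasgrf1 are also known as imprinted genes; how many of all genes tested are imprinted was not counted. Peg10 was at 8.35 and 8.56 CPM against 0.144 to 1.38 CPM, and Rasgrf1, a Ras exchange factor, at 1.33 and 1.22 CPM with 0 to 2 reads elsewhere. Of further genes of the Dlk1 and Meg3 domain, looked up after the members were seen, Rtl1 and Dio3 were under 1 CPM. Rtl1 was at 0.133 and 0.543 CPM against 0 to 0.128 CPM in the other 6, and Dio3 at 0.133 and 0.136 CPM against 0 to 0.192 CPM. Rian and Mirg were looked up too but matched no gene row, so their levels are not known.

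Enzymes and mitochondrial proteins made up the next most abundant of these 18 genes. Akr1cl, an aldo-keto reductase-like gene, was at 29.4 and 38.0 CPM in knockout replicate 2 and wildtype replicate 1, with 0 to 7 reads in the other 6. Mgarp, a mitochondrial protein of steroid-making tissues, was at 26.1 and 28.7 CPM, with 1 to 11 reads in the other 6. Acsbg1, an acyl-CoA synthetase, was at 11.3 and 13.8 CPM against 0.640 to 1.86 CPM. The highest remainders of Akr1cl and Mgarp were in knockout replicates 1 and 4, as for the steroid enzymes.

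Several of the 18 encode proteins known from neurons or matrix. Bcan, brevican, a matrix proteoglycan of the nervous system, was at 3.12 and 2.11 CPM and had 0 reads in the other 6. Acan, aggrecan, was at 1.26 and 1.97 CPM with 2 reads in knockout replicate 1 and 0 elsewhere. Rims4, of the presynaptic release machinery, was at 3.18 and 2.11 CPM. Agtr2, the second angiotensin II receptor, was at 1.26 CPM (19 reads) and 2.65 CPM (39 reads), against 0 to 4 reads in the other 6; with TMM or DESeq2 scaling it no longer met the rule. The remaining members were 1500015O10Rik at 7.56 and 7.88 CPM, Prss35 at 6.89 and 8.08, ENSMUSG00000091793 at 9.68 and 11.3, Trank1 at 4.04 and 5.37, Disp2 at 2.72 and 2.85, Frmd5 at 2.25 and 2.11, Tub at 1.79 and 2.45, and 1520401A03Rik at 1.06 and 1.15 CPM. ENSMUSG00000091793 has no entry in GENCODE M21 and is given by its identifier.

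At the threshold, the members with the smallest ratio of the lower high library to the highest other library were Agtr2 (5.24), Disp2 (5.36), Frmd5 (5.49) and Npy (5.59). Just outside it were Ptprn (4.92), Kcnk3 (4.77), Abcb1b (4.62) and Gria2 (4.19). Ptprn, a protein of neuroendocrine granules, was at 3.05 and 3.40 CPM, and Abcb1b, a drug and steroid transporter, at 34.9 and 45.6 CPM against 2.83 to 7.55 CPM in the other 6. A further 16 genes reached the ratio at 0.5 to 1 CPM, among them Hand2, a transcription factor of the sympathetic lineage, the release protein gene Snap25 and the granin gene Scg3; 6 of these 16 stood on medulla lists and 2 on cortex lists.

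Most genes on the adrenal lists did not meet the rule. Of 72 cortex-list genes, 12 passed, 50 had a ratio under 5 and 10 were under 1 CPM in at least 1 of the high libraries. Of 62 medulla-list genes the numbers were 12, 23 and 27. Among genes with at least 1 CPM in both high libraries, both lay above all other 6 for 29 of 62 cortex-list genes and 19 of 35 medulla-list genes, and for 1025 of all 13449 such genes (7.62%). These counts and the medians below include the members, which lie above all other 6 by the rule. Among such genes that did not pass, the counts were 17 of 50, 7 of 23 and 983 of 13407. The lists were chosen with earlier results of these data known, so these counts are a description only. The median ratio of the lower high library to the highest other library was 0.93 over the cortex lists and 1.16 over the medulla lists. Over all genes with at least 1 CPM in both it was 0.80. The list medians also take in the 10 cortex-list and 27 medulla-list genes under 1 CPM, so these sets are not alike. Genes at 0 in all other 6 have no ratio and are left out.

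Of 15 genes of cholesterol handling, which supplies the cortex with its substrate, 0 passed and 4 lay above the other 6. Scarb1, the receptor that takes up cholesterol from high-density lipoprotein, was at 95.3 and 63.6 CPM in knockout replicate 2 and wildtype replicate 1, and at 10.5 to 17.0 CPM in the other 6. Its excess over the median of those 6 was 80.6 and 48.9 CPM. Fdxr, ferredoxin reductase, which passes electrons to the mitochondrial steroid enzymes, was at 59.8 and 55.9 CPM against 14.5 to 23.9 CPM. Its partner Fdx1 overlapped, at 122 and 139 CPM against 83.8 to 125 CPM. Among chromaffin genes, Ddc, which makes dopamine and is abundant in proximal tubule, was at 40.5 and 29.1 CPM against 35.2 to 72.2 CPM, and the vesicular transporter Slc18a1 at 97.8 and 267 CPM against 108 to 177 CPM.

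**Figure D2:**
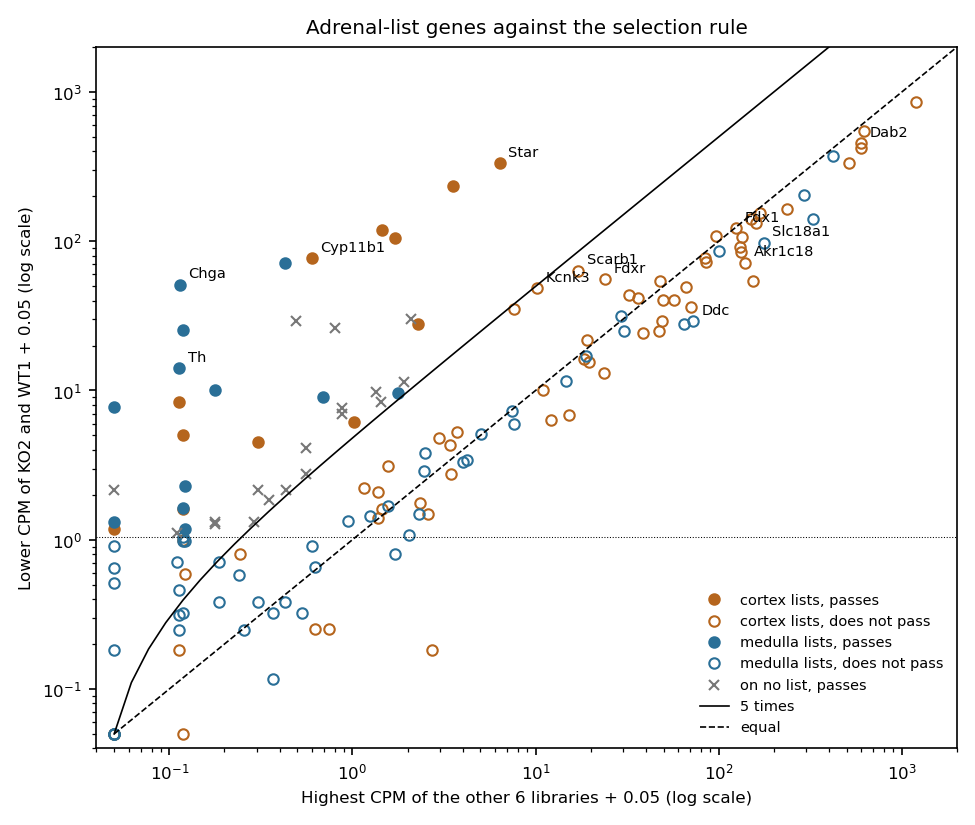
Lower CPM of both high libraries (y axis) against the highest CPM of the other 6 (x axis), both on a log scale with 0.05 added, for genes on cortex lists (brown) and medulla lists (blue), filled where the rule is met, and for members on no list (crosses). Star, Cyp11b1, Chga and Th lie above the line of 5 times, Kcnk3 just below it, and Fdx1, Ddc and Dab2 near or below the line of equal levels.

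Genes of other parts of the adrenal gland were not among the members. Over all genes with at least 1 CPM in both high libraries, 0.312% met the rule and 7.62% lay above all other 6 libraries. Of 7 capsule genes 0 met the rule and 2, Rspo3 and Gli1, lay above all other 6; Rspo3, a Wnt signal from the capsule, was at 2.65 and 2.04 CPM against 1.01 to 1.72 CPM. Of 6 genes of the X-zone, a transient inner layer of the mouse cortex, 0 met it and 1, Sbsn, lay above all other 6, at 4.44 and 4.28 CPM against 0.633 to 3.36 CPM. The zone's marker Akr1c18, also a kidney transcript, was at 148 and 71.7 CPM against 49.3 to 139 CPM. For Schwann and sustentacular cells, which sheathe nerves and chromaffin cells, 0 of 11 met it and 0 lay above all other 6; Sox10, a transcription factor of these cells, was at 0.0663 and 0.340 CPM against 0.0634 to 0.320 CPM.

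Gonads also make steroids. Of 14 gonad genes 0 met the rule, but 12 were under 1 CPM in at least 1 high library and could not meet it. Fshr and Cyp19a1 had 0 reads in all 8 libraries and Lhcgr had 0 in both high libraries. Cyp17a1, needed for sex steroids, was low at 2.19 and 2.45 CPM against 0.0601 to 1.10 CPM, and Inha, an inhibin subunit, was at 3.25 and 3.06 CPM against at most 1.46 CPM elsewhere. These 2 were the gonad genes with enough reads for the rule, and both lay above all other 6 libraries. Pancreas, liver, muscle, gut, lymphoid and urothelial lists gave 0 members each. Of their matched genes, 7 of 8, 5 of 8, 7 of 7, 4 of 6, 5 of 8 and 1 of 8 were under 1 CPM in at least 1 high library. Over all genes with at least 1 CPM in both, 0.312% met the rule, so a count of 0 in lists of this size says little.

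Fat and blood transcripts moved partly with the adrenal ones, and their part in the result was not tested. Over 8 white fat genes the summed level was 1101 CPM in knockout replicate 2 and 994 CPM in wildtype replicate 1, against 327 to 1010 CPM in the other 6. The 1010 CPM was in knockout replicate 1, where the 42 members summed to 24.1 CPM. Over 7 brown fat genes it was 286 and 282 CPM against 131 to 324 CPM, with the highest value in knockout replicate 4. Red cell genes summed to 1284 and 1373 CPM against 177 to 7800 CPM, highest in knockout replicate 1. Of the white fat genes 2, Plin1 and Cidec, lay above all other 6 libraries, and of the brown fat genes 1, Cox8b, at 18.8 and 14.9 CPM against 4.69 to 14.3 CPM. Over all genes with at least 1 CPM in both high libraries, this share was 7.62%. On these 3 lists 0 genes met the rule.

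The summed level of the 42 members was similar in both high libraries. The rule chose genes high in both, 18 of the 42 stood on no adrenal list, and genes such as Scarb1 did not meet it. The sum is therefore no measure of all adrenal transcript. The 42 members summed to 1365 CPM (0.136% of gene counts) in knockout replicate 2 and 1385 CPM (0.139%) in wildtype replicate 1, and to 13.3 to 25.3 CPM in the other 6. By label, the mean was 357 ± 672 CPM in knockout and 357 ± 686 CPM in wildtype libraries (SD, n = 4 each), and each label holds 1 of the high libraries. The label means differed by 0.257 CPM. The rule chose genes high in 1 library of each label, so this difference and both SDs say nothing about genotype. Without both high libraries the sum was 21.4 ± 5.77 CPM for knockout and 14.2 ± 1.28 CPM for wildtype (SD, n = 3 each). This difference of 7.21 CPM was not tested. The rule also used the highest of these other 6 libraries, which limits their levels, so the difference is no evidence about genotype. Knockout replicate 3, at 14.8 CPM, lay within the wildtype range of 13.3 to 15.7 CPM, and replicates 1 and 4, at 24.1 and 25.3 CPM, lay above it.

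The high libraries were also compared with each other. Over all genes with at least 1 CPM in both, 5429 of 13449 were higher in wildtype replicate 1 and 8020 in knockout replicate 2, with a median ratio of wildtype replicate 1 to knockout replicate 2 of 0.962. The 12 cortex-list members summed to 1009 CPM in knockout replicate 2 and 937 CPM in wildtype replicate 1, a ratio of 0.928 (95% interval 0.907 to 0.950). The 12 medulla-list members summed to 204 and 274 CPM, a ratio of 1.35 (95% interval 1.28 to 1.41). These exact conditional intervals cover counting error only, since each side is 1 library. All 12 medulla-list members were higher in wildtype replicate 1, with ratios of 1.05 (Npy) to 1.81 (Scg2) and a median of 1.33, also under both other library scalings; for 4 of them (Scg2, Dlk1, Chga and Chgb) the interval lay above 1. Of the cortex-list members 8 of 12 were higher in knockout replicate 2, and 7 of 12 with TMM or DESeq2 scaling, with a median ratio of 0.895, a split close to that over all genes.

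Genes of the cortex zones did not all lean to the same library. Cyp11b2, of the outer zone, was 1.58 times as high in wildtype replicate 1 as in knockout replicate 2 (95% interval 1.18 to 2.15), while Cyp11b1 was at 0.812 (0.751 to 0.879) and Cyp21a1 at 0.796 (0.744 to 0.851). Cacna1h, also listed for the outer zone, went the other way at 0.704 (0.532 to 0.928), and Atp2b3 and Vsnl1 had intervals that included 1. Hsd3b1 was at 1.04 (0.996 to 1.09) and Star at 0.920 (0.885 to 0.956).

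**Figure D3:**
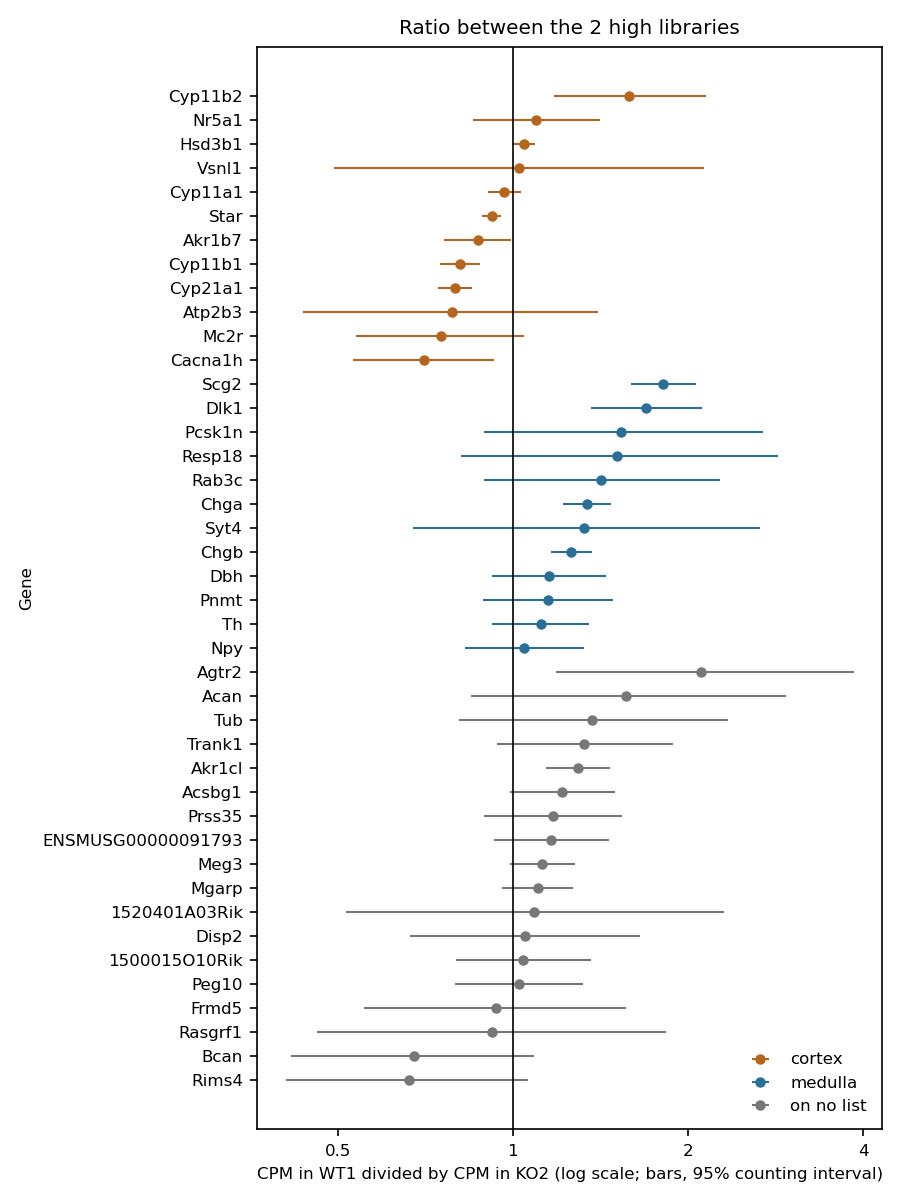
CPM in wildtype replicate 1 divided by CPM in knockout replicate 2 for the 42 genes (log axis), with 95% counting intervals, for cortex-list genes (brown), medulla-list genes (blue) and genes on no list (grey). All 12 medulla points lie to the right of 1, from 1.05 to 1.81, and 8 of 12 cortex points to the left of it, where 8020 of all 13449 genes also lie.

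A small cortex remainder was seen in 2 of the other libraries. Hsd3b1, Cyp11a1, Cyp21a1 and Cyp11b1 together, chosen after their values were seen, had 98 reads in knockout replicate 1 and 78 in knockout replicate 4, and 7 to 11 reads in each of the other 4. Relative to the mean of the high libraries, this was 1.10% and 0.952% in knockout replicates 1 and 4 and 0.0895% to 0.124% in the others. The medulla genes Chga, Chgb, Scg2, Th, Dbh and Pnmt together had 9 reads in knockout replicate 1, 4 in knockout replicate 4 and 2 to 5 in the others. Their share of the high mean was 0.272% in knockout replicate 1 and 0.131% in knockout replicate 4. Both medulla shares lay below the cortex shares of the same libraries, 1.10% in knockout replicate 1 and 0.952% in knockout replicate 4. This difference was not tested. With 4 reads, knockout replicate 4 did not stand above the other libraries for these medulla genes.

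**Figure D4:**
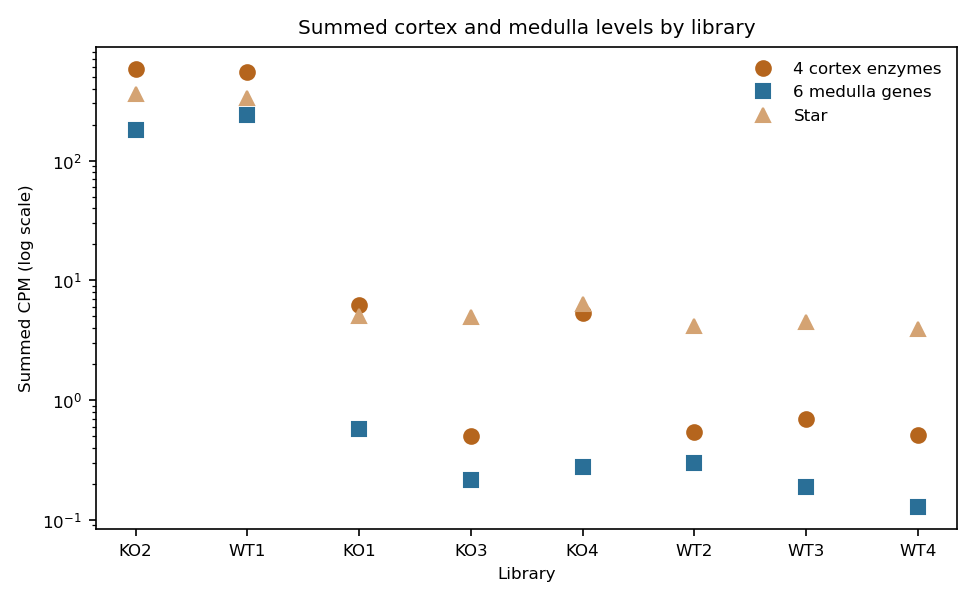
Summed CPM (log axis) of 4 cortex enzymes (Hsd3b1, Cyp11a1, Cyp21a1 and Cyp11b1), of 6 medulla genes (Chga, Chgb, Scg2, Th, Dbh and Pnmt) and of Star in each of the 8 libraries. Knockout replicate 2 and wildtype replicate 1 are highest for each sum; the cortex sum is at 6.22 and 5.37 CPM in knockout replicates 1 and 4 and at 0.505 to 0.697 CPM in the other 4, while Star stays at 3.97 to 6.33 CPM in all other 6.

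Per kilobase of exon, the order of levels within both high libraries began with Hsd3b1 at 126 and 132 CPM and Star at 88.3 and 81.2 CPM, in knockout replicate 2 and wildtype replicate 1. Cyp21a1 followed at 61.2 and 48.8 CPM. The granin Chgb, at 25.9 and 32.7 CPM, lay between the cortex enzymes Cyp11b1, at 29.9 and 24.3 CPM, and Cyp11a1, at 25.7 and 24.8 CPM, in knockout replicate 2 and above both in wildtype replicate 1. Of the adrenaline enzymes, Pnmt was at 6.66 and 7.65 CPM, Th at 5.92 and 6.61 CPM and Dbh at 3.69 and 4.26 CPM per kilobase. The order of Chgb, Cyp11b1 and Cyp11a1 changed between both libraries, and with 1 library each no spread is known. It also depends on the length used: all annotated exons of Cyp11a1 together span 4.80 kb, while its longest transcript has 3439 bases.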

How the data were processed

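RNA from whole kidneys was sequenced in 8 libraries prepared with a strand-marking kit (labels' protocols). The deposited values are whole-number read counts per gene, 1 file per library, not normalized. The tools were STAR, HTSeq and edgeR and the build mm9, per the submitters' processing notes; their versions, and the gene annotation, were not given in the sources used here. Strand was ignored in counting, per the deposited file names, so reads of overlapping antisense genes cannot be told apart; 10 of the 42 members share exon sequence with a gene on the opposite strand and 2 with one on the same strand in GENCODE M21. Closing lines that name no gene were left out: reads outside genes made up 11.6% to 16.2%, non-unique reads 15.8% to 20.9% and ambiguous ones 2.05% to 2.31% of each library.

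Of 37583 identifiers 32860 matched a symbol, and 41 members matched GENCODE M21 on GRCm38, from which positions and exon lengths were taken; no coordinate was converted from mm9. Libraries were grouped by title. Levels were computed in Python 3.11.15 with pandas 2.3.3, and intervals with scipy 1.17.1. No p-value was computed, because the counts themselves chose the members; the criterion for libraries that stand apart, in the closing section, is used only to describe them. A count of 0 allows up to 3 reads, 0.180 to 0.216 CPM; floors and intervals cover counting error only, as PCR copies count as separate reads. The members and the 22 gene lists (243 genes, 3 not matched) were chosen with earlier results of these data known. Named are the 4 markers, all members, the genes next to the threshold and up to 4 abundant genes per adrenal list; others were chosen after their values were seen. Alternatives were TMM scaling (edgeR 4.0.16), DESeq2 1.42.0 size factors, other minimum levels and ratios, and each library left out. Figures were drawn with matplotlib 3.10.9.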

Additional observations from a re-analysis of the deposited data

Results flagged for a closer look

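In groups of 4 libraries, 1 library was set apart when its gap to the next exceeded Dixon's 95% critical value as a share of the group's range, which chance gives for about 5% of groups. Among knockout libraries, replicate 2 stood apart for the summed level of all 42 members (1365 CPM), of the cortex-list members (1009 CPM), of the medulla-list members (204 CPM) and of the members on no list (152 CPM). Among wildtype libraries, replicate 1 stood apart for the same sums, at 1385, 937, 274 and 174 CPM. The rule that chose the members sets these gaps, which each of the 42 genes showed in both labels, so for these sums they are a description and support nothing.

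The summed red cell level stood apart in knockout replicate 1 (7800 CPM) and in wildtype replicate 1 (1373 CPM). The first of these libraries is not one of the adrenal-high ones, and the second is. How many list sums were screened is not given here. These flags therefore cannot be weighed against the share that chance gives, and are a description only.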

How the results depend on the processing

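The 42 genes depended mainly on the minimum level and the ratio. No minimum level gave 144 genes and a ratio of 10 gave 27, while the number of medulla-list genes rose to 21 with no minimum. All 42 remained among the passing genes when any 1 library was left out, with 42 to 58 genes passing; 58 was reached without knockout replicate 2, by the rule on wildtype replicate 1 alone. The numbers of medulla-list genes ran from 12 to 19 (19 without knockout replicate 2).

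The summed level in knockout replicate 2 was 1315 CPM with TMM, 1310 CPM with DESeq2 size factors, 1391 CPM with no minimum, 1561 CPM at a ratio of 3 and 1285 CPM at a ratio of 10; leaving out 1 library gave 1365 to 1465 CPM. In wildtype replicate 1 it was 1417 CPM with no minimum, 1560 CPM at a ratio of 3 and 1299 CPM at a ratio of 10, and 1385 to 1459 CPM with 1 library left out. The highest sum in the other 6 was 58.8 CPM at a ratio of 3 and 16.6 CPM at a ratio of 10, and 25.3 to 39.9 CPM with 1 library left out (39.9 without wildtype replicate 1).

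The median ratio of wildtype replicate 1 to knockout replicate 2 was 0.962 over all genes with gene totals as the scale. For cortex-list genes it was 0.928 with TMM and DESeq2 alike, 0.841 with a minimum of 0.5 CPM or none, 0.920 at ratios of 3 and 10, and 0.895 to 0.920 with 1 library left out. For medulla-list genes it stayed above 1: 1.26 with a minimum of 2 CPM and 1.42 with none. The difference between label means of the summed level, knockout minus wildtype, was 0.257 CPM, 7.21 CPM without both high libraries and -12.6 CPM with TMM. With all libraries the rule that chose the members sets the SD in each label, so the difference cannot be weighed against it. Without both high libraries the rule still limits the levels, so that difference is no evidence about genotype either. No paired analysis was made, since no test was run and the labels used here give no pairing of libraries. With 1 of the high libraries left out, its own sum and the ratio between both have no value. Depth limits genes with few reads: the lowest member, 1520401A03Rik, rests on 16 and 17 reads in the high libraries.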
